A study of Homo sapiens with 12 samples.

Results

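Retinoid synthesis enzymes and retinoic acid receptors were examined in K562 leukemia cells and in an imatinib-resistant derivative, with and without lycorine. The set held 10 genes (ALDH1A1, ALDH1A2, ALDH1A3, RARA, RARB, RARG, RXRA, RXRB, CYP26B1 and CRABP2) of the 19447 gene symbols in the count table, and all 10 were found. They were picked by symbol, with measured values of these same libraries in view across the 4 groups, and which values were used is not recorded. Their levels and fold changes are therefore descriptions, given without p-values, and "called" states only which genes passed the thresholds of the fit over the whole table.

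K562 is a human chronic myeloid leukemia line that carries BCR-ABL, the fusion kinase that imatinib inhibits, and all 4 groups descend from it. K562/IM is the derivative that the study made by raising imatinib stepwise in culture and then kept in 5 µM imatinib, and the number of independent selections is not given in the sources used here. Lycorine, a plant alkaloid, was added at 6 µM in K562+L and K562/IM+L, while K562 and K562/IM are the controls, with the doses taken from the study's methods. Each group had 3 libraries of poly(A)-enriched RNA, and the sources used here do not say whether these were separate cultures, so that the spread between them may be technical. The time of exposure before sequencing and whether imatinib stayed in the medium during it are not given in the sources used here.

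Total counts were 75093844 to 107344598 per library. The K562/IM+L libraries stood apart and are called the labelled K562/IM+L libraries throughout, because the sample labels and the study's figures name that group differently. Of 1272 genes called in K562/IM against K562 with a fitted change over 2 log2 units, 76.3% to 79.3% lay nearer to K562 in each of these libraries. Nearness was to the mean of K562 rather than of K562/IM, on a log2 scale. The 9 erythroid markers examined summed to 14800 to 19500 CPM (counts scaled to normalized library size) there. They summed to 3490 to 4360 CPM in K562, 2330 to 2590 in K562+L and 1520 to 1680 in K562/IM. HBG1 (8530 CPM on average) and HBA1 (4900) made up most of the sum in the labelled K562/IM+L libraries. GATA1 averaged 250 CPM there and 230 in K562, and overlapped. In K562+L, KLF1 (174 CPM against 139), ALAS2 (48.8 against 43.6) and SLC4A1 (5.45 against 4.35) averaged above K562, and the other markers below. Granulocyte and monocyte markers summed to 79.5 to 207 CPM over 8 genes, most of it LYZ, with MPO, a defining marker, at 10 counts or fewer in every library. SPI1 averaged 2.59 CPM in K562, 33.7 in K562/IM and 1.98 in the labelled K562/IM+L libraries, and ITGAM 0.14, 3.02 and 0.413. CEBPA (0.699 CPM against 0.992) and CD14 (0.0608 against 0.159) averaged lower in K562/IM than in K562, with overlapping libraries. The 6 megakaryocyte markers summed to 216 to 1040 CPM with PF4 at 5 counts or fewer, but its members differed. ITGA2B went from 4.83 CPM in K562 to 186 in K562/IM and 18.1 in the labelled K562/IM+L libraries, ITGB3 from 0.429 to 11.2 and 3.86, and GP1BB, which carries most of the sum in K562, from 362 to 55.5 and 833. The 5 lymphocyte and 5 fibroblast markers summed to 23.8 to 25.6 and 20.2 to 25 CPM in K562/IM and to 3.50 and 1.62 CPM or less elsewhere, with MS4A1 at 0 throughout. The part of these shifts in the values below was not tested, and in bulk RNA fewer cells of a type and less RNA per cell cannot be told apart. The comparisons of K562+L and of K562/IM with K562 do not use the labelled K562/IM+L libraries.

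Cells take up retinol (vitamin A), oxidise it reversibly to retinal with retinol dehydrogenases, and oxidise retinal irreversibly to retinoic acid with the ALDH1A enzymes. CRABP2 carries retinoic acid to the nucleus, where the receptors RARA, RARB and RARG bind it as heterodimers with an RXR partner, and the CYP26 enzymes break it down. In myeloid cells the pathway is best known for driving granulocyte maturation through RARA. The heterodimer binds direct repeats of a short half-site, and the classic example is the repeat with a spacer of 5 bases in the RARB promoter, shown here because RARB and CYP26A1 are textbook targets by which receptor activity is read. In the RefSeq promoter windows (GRCh38.p14, 250 bases before to 50 after a start), half-sites of 6 bases were searched as a direct repeat with that spacer, on both strands and with no other motif. A half-site read AGGTCA in its usual form, and the variant GGGTCA was accepted, as were the variant AGTTCA and the variant GGTTCA. All 10 genes of the set matched, with 18 windows, and 1 window held the repeat, a RARB window. The variants accepted include those of the RARB repeat, so that this match was fixed by the search and says nothing about the set. Over all windows the repeat was in 31 of 35116 (0.0883%). Capitals mark the repeat, which lies 53 to 37 bases before the RARB start (chr3:25428150-25428256, plus strand) and 90 to 74 bases before the CYP26A1 start (chr10:93073797-93073825, plus strand), where it reads on the opposite strand.
RARB: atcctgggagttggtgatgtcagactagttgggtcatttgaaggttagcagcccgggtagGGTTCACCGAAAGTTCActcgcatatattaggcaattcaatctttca
CYP26A1: taaagaTGAACTTTGGGTGAACTaattgt
Both of these genes were close to the floor of the counts. RARB had 9, 13 and 5 counts in K562, 7, 27 and 8 in K562+L, 4, 9 and 13 in K562/IM, and 0, 5 and 12 in the labelled K562/IM+L libraries. The groups overlapped, and no group of libraries was set apart for RARB. CYP26A1, the main retinoic acid hydroxylase, had 47, 28 and 25 counts in K562, 14, 4 and 24 in K562+L, 21, 17 and 21 in K562/IM, and 30, 36 and 63 in the labelled K562/IM+L libraries. In CPM it was 0.411 ± 0.144, 0.146 ± 0.0928, 0.208 ± 0.0388 and 0.517 ± 0.146 (SD, n = 3) in that order. A match to these letters is a description and not a binding site.

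Of the synthesis enzymes, ALDH1A2 had the widest range of the set. This retinal dehydrogenase (chromosome 15, 57953424 to 58497866, minus strand, GRCh38) stood at 57.9, 56.0 and 54.9 CPM in K562. In K562+L it was 42.4, 38.2 and 44.5 CPM. K562/IM held 0.575, 0.770 and 0.792 CPM, which were 48, 74 and 85 counts. The labelled K562/IM+L libraries held 30.5, 24.2 and 28.1 CPM. The groups did not overlap, with K562 highest, K562+L next, then the labelled K562/IM+L libraries, and K562/IM lowest. The promoter window of ALDH1A2 at its upstream RefSeq start was rich in CpG, with 41 CpG and 74.0% G+C, against medians of 14 and 58.7% over all windows. A window of RXRA held 65 CpG and the ALDH1A3 window 46, so that this was not particular to ALDH1A2. The other ALDH1A2 window held 1 CpG and 42.7% G+C. DNA methylation was not measured.

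ALDH1A1, the other main retinal dehydrogenase and a widely used marker of stem-like cells, was abundant in every library. This gene (chromosome 9, 72900662 to 73080442, minus strand) measured 151, 151 and 153 CPM in K562 and 147, 167 and 158 CPM in K562/IM, and these groups overlapped. In K562+L it was 95.9, 100 and 98.9 CPM, below every other library. The labelled K562/IM+L libraries were highest, with 182, 180 and 178 CPM. ALDH1A3, another enzyme of the family, was nearly absent, with 0 counts in 9 of 12 libraries and 2, 4 and 13 counts in the others. Per kilobase of the principal transcript, ALDH1A2 made up 16.0% ± 0.40 of the summed ALDH1A level in K562, 17.9% ± 1.31 in K562+L, 0.231% ± 0.0289 in K562/IM and 7.31% ± 0.767 in the labelled K562/IM+L libraries (SD, n = 3). With the length of all exons the shares were 10.9%, 12.3%, 0.149% and 4.82%, in the same order of groups.

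**Figure D1:**
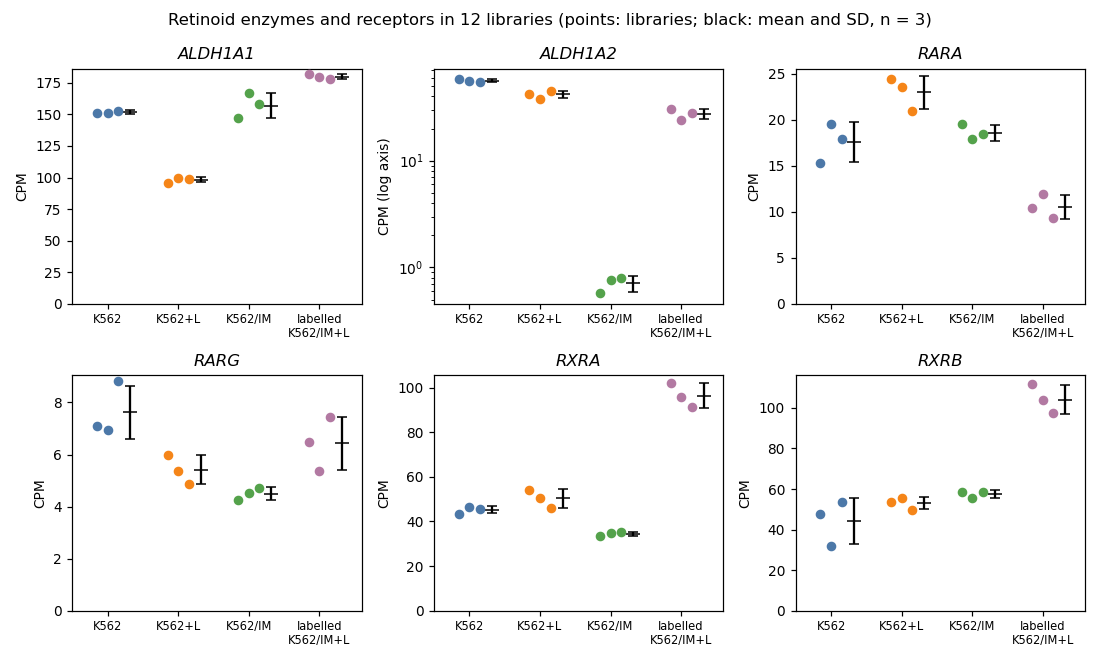
CPM of 6 retinoid genes in each library (points) by group, with the group mean and SD (black, n = 3); the ALDH1A2 axis is logarithmic and the others start at 0. ALDH1A2 lies under 1 CPM in all K562/IM libraries and over 20 in the rest, and RXRA and RXRB are highest in the labelled K562/IM+L libraries.

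Among the receptors for retinoic acid, RARA (chromosome 17, 40309192 to 40357643, plus strand) was the main one in every group. It measured 15.3, 19.6 and 17.9 CPM in K562 and 19.5, 17.9 and 18.5 CPM in K562/IM, which overlapped. K562+L held 24.4, 23.6 and 21.0 CPM, above all other libraries. The labelled K562/IM+L libraries held 10.4, 11.9 and 9.33 CPM, below all other libraries. RARG, the receptor best known from skin and from stem cell self-renewal, measured 7.09, 6.95 and 8.81 CPM in K562. It was 6.00, 5.38 and 4.88 CPM in K562+L, 4.25, 4.52 and 4.73 in K562/IM, and 6.47, 5.38 and 7.43 in the labelled K562/IM+L libraries. K562/IM was lowest for RARG without overlap, while the labelled K562/IM+L libraries overlapped both K562 and K562+L. Per kilobase, RARA was 73.5% ± 3.21 of the summed RAR level in K562, 83.5% ± 0.361 in K562+L, 83.3% ± 1.33 in K562/IM and 66.4% ± 6.30 in the labelled K562/IM+L libraries (SD, n = 3).

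The RXR genes encode the shared partner of the retinoic acid, vitamin D, thyroid hormone, PPAR and LXR receptors. RXRA (chromosome 9, 134317098 to 134440585, plus strand) measured 43.5, 46.7 and 45.7 CPM in K562 and 54.2, 50.6 and 46.1 CPM in K562+L. K562/IM was lower, with 33.3, 34.7 and 35.2 CPM, and the labelled K562/IM+L libraries were highest, with 102, 95.7 and 91.3 CPM. K562 and K562+L overlapped for RXRA, and the other neighbours in this order did not. RXRB (chromosome 6, 33193588 to 33200688, minus strand) measured 47.6, 31.8 and 53.4 CPM in K562, with replicate 2 the lowest of all libraries. It was 53.6, 55.8 and 49.7 CPM in K562+L, 58.6, 55.4 and 58.6 in K562/IM and 112, 104 and 97.4 in the labelled K562/IM+L libraries. For RXRB the labelled K562/IM+L libraries stood alone, and K562+L overlapped both K562 and K562/IM. RXRG, the remaining RXR gene, was listed at 0 in all 12 libraries. The ratio of summed RXR to summed RAR level per kilobase was 4.05 ± 0.561 in K562, 3.99 ± 0.0651 in K562+L, 4.15 ± 0.127 in K562/IM and 13.4 ± 0.839 in the labelled K562/IM+L libraries (SD, n = 3). With the length of all exons it was 2.97, 3.04, 3.67 and 10.1.

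CRABP2 and CYP26B1, the genes of the set that deliver and degrade retinoic acid, were at or near the floor. CRABP2 had 65, 15 and 35 counts in K562, 15, 34 and 24 in K562+L, 50, 66 and 61 in K562/IM, and 19, 32 and 14 in the labelled K562/IM+L libraries. The K562/IM libraries lay above those labelled K562/IM+L, while K562 spanned both. CYP26B1 was listed at 0 in all 12 libraries, where the limit that a count of 0 allows (3 counts) was 0.0279 to 0.0420 CPM and covers counting error only. Some broadly used enzymes such as ALDH3A2 and ALDH7A1 were also listed at or near 0 (17 counts or fewer), so that a listed 0 is not read here as absence.

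Per kilobase of the principal transcript, ALDH1A1 had the highest level of the set in each group, at 72.0 CPM per kb in K562, 46.7 in K562+L, 74.7 in K562/IM and 85.4 in the labelled K562/IM+L libraries. RXRA and RXRB followed, at 24.5 and 15.2 CPM per kb in K562 and 52.2 and 35.9 in the labelled K562/IM+L libraries. ALDH1A2 came next in K562, at 13.7 CPM per kb, and dropped behind CRABP2 in K562/IM, at 0.174 against 0.598. With the length of all exons of a gene in place of the principal transcript, ALDH1A1 stayed first in the 4 groups. RXRB then stood above RXRA in each, since the exons of RXRA cover 11083 bases against 1846 in its principal transcript. RXRA also fell behind ALDH1A2 in K562 (4.09 against 6.53 CPM per kb) and behind RARA in K562/IM (3.11 against 3.94). In K562+L it fell behind both.

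None of the set was called with lycorine in K562. Of the 10 genes, 7 passed the filter on low counts in each pairwise comparison, and ALDH1A3, RARB and CYP26B1 did not. In K562+L against K562, 0 of the 7 were called by edgeR's quasi-likelihood test (adjusted p below 0.05 with more than 1 log2 unit of change), and 0 by DESeq2, while 4 had an unadjusted p under 0.05. Over all 12927 genes tested 6.39% were called (2.38% higher, 4.01% lower). The log2 fold changes were -0.63 ± 0.075 (SE) for ALDH1A1, -0.43 ± 0.090 for ALDH1A2, -0.49 ± 0.15 for RARG and 0.39 ± 0.12 for RARA. These 4 passed the adjusted p alone, as did 37.3% of all genes. RXRA and RXRB changed by 0.15 ± 0.092 and 0.26 ± 0.18 and overlapped between the groups.

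The resistant line differed from K562 in ALDH1A2. In K562/IM against K562, ALDH1A2 was 78.4-fold lower, a log2 fold change of -6.29 ± 0.14 (SE), and it was the 1 gene of 7 that was called. Of the 13406 genes tested, 67 had a lower log2 fold change, which is a description, since the set was picked with these libraries in view. Of all genes 19.1% were called (13.9% higher, 5.29% lower). RARG and RXRA were lower by less, at -0.76 ± 0.14 and -0.40 ± 0.071, and passed the adjusted p alone, as did 57.1% of all genes. ALDH1A1 and RARA differed by 0.05 ± 0.072 and 0.09 ± 0.11, and RARA changed sign, to -0.04, without K562 replicate 1.

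The labelled K562/IM+L libraries had more ALDH1A2 and RXR transcript than K562/IM. ALDH1A2 was 39.1-fold higher (log2 fold change 5.29 ± 0.17, SE) and RXRA 2.84-fold higher (1.51 ± 0.070), and these 2 of 7 were called, where 28.5% of all 13727 genes tested were (14.7% higher, 13.8% lower). RXRB was higher by 0.88 ± 0.073, RARG by 0.54 ± 0.16 and ALDH1A1 by 0.22 ± 0.069, while RARA was lower, at -0.80 ± 0.11. These 4 passed the adjusted p alone, as did 66.8% of all genes. CRABP2 stood at -1.14 ± 0.47 and was not called, but was called without the second labelled K562/IM+L library (-1.65) or with all counts divided by 4 (-1.06).

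Set against untreated K562, the same libraries were higher in RXRB (log2 fold change 1.22 ± 0.19, SE) and RXRA (1.07 ± 0.084) and lower in ALDH1A2 (-1.05 ± 0.10). These 3 of 7 were called, where 23.8% of all 13307 genes were (14.9% higher, 8.91% lower). By upper-quartile scaling the calls over all genes moved from 1977 higher and 1185 lower to 2355 and 873, the median log2 fold change of all genes moved from 0.02 to 0.17, and ALDH1A2 stood at -0.90, no longer called. Without the second labelled K562/IM+L library it was -0.98, not called either. RARA was lower (-0.76 ± 0.15) and ALDH1A1 higher (0.22 ± 0.074) by the adjusted p alone, which 56.0% of all genes passed, and RARG stood at -0.27 ± 0.17.

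**Figure D2:**
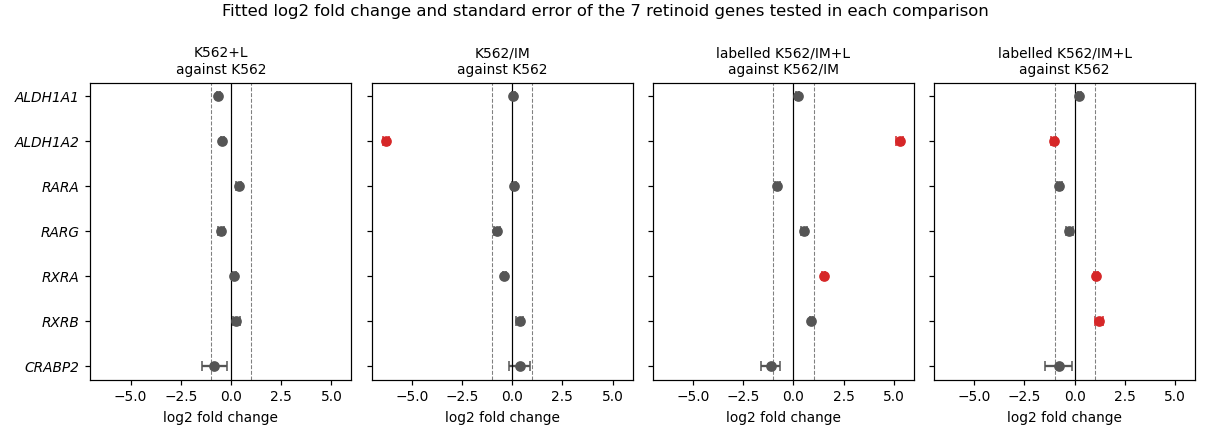
Fitted log2 fold change (x axis) and standard error of the 7 genes tested in each of the 4 pairwise comparisons, with called genes in red and dashed lines at -1 and 1. ALDH1A2 was called lower in K562/IM against K562 (-6.29) and higher for the labelled K562/IM+L libraries against K562/IM (5.29), and none of the 7 was called in K562+L against K562.

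The lycorine effect as labelled in K562/IM minus that in K562 was fitted over all 12 libraries, where 8 genes of the set passed the filter. It was called at an adjusted p under 0.05 for 6 of them, against 61.7% of all 13995 genes tested. The differences were 5.70 ± 0.18 (SE, log2) for ALDH1A2, 1.33 ± 0.11 for RXRA, 1.01 ± 0.22 for RARG, 0.82 ± 0.086 for ALDH1A1, 0.60 ± 0.21 for RXRB and -1.21 ± 0.16 for RARA. The call of RXRB was lost without any 1 of 5 libraries, K562 replicate 3 (0.44), K562+L replicate 3 (0.55), K562/IM replicate 2 (0.59) and the first (0.55) and second (0.56) labelled K562/IM+L libraries. ALDH1A1, ALDH1A2 and RARG were lower with lycorine in K562 and higher in the labelled libraries of the resistant line, and RARA ran the other way. RARB (-0.88 ± 1.39) and CRABP2 (-0.32 ± 0.83) were not called.

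Among the genes with the pattern most like ALDH1A2, by Pearson correlation of log2(CPM + 1) over the 12 libraries among 13994 other genes, were CABLES1 (0.992) and BICDL1 (0.991). CABLES1 measured 19.2 ± 0.223, 19.7 ± 0.892, 0.747 ± 0.189 and 11.3 ± 0.891 CPM (SD, n = 3) in K562, K562+L, K562/IM and the labelled K562/IM+L libraries. Among those closest to RXRA were DYRK1B (0.995) and ESPN (0.993). ESPN, an actin-bundling protein gene, went from 0.773 ± 0.0759 CPM in K562/IM to 847 ± 65.3 CPM in the labelled K562/IM+L libraries (SD, n = 3). Those closest to RXRB were ACP2 (0.977), TAGLN (0.963) and CASTOR3 (0.954). All points share the same 4 groups, so that a correlation over them is mainly a likeness of 4 group means.

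Several genes of the set overlap others on the opposite strand, and the sources used here do not say whether counting used strand. RXRB overlaps SLC39A7, a zinc transporter gene, which measured 251, 206, 258 and 300 CPM on average in K562, K562+L, K562/IM and the labelled K562/IM+L libraries. RARB overlaps TOP2B, which measured 228, 256, 382 and 146 CPM in that order. Reads from stretches that both genes of a pair share cannot be told apart without strand, and the length of these stretches was not measured. ALDH1A2 overlaps AQP9 and LIPC, which were at 0.696 CPM or less on average in every group.

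The rest of the pathway was read from 102 further genes in 7 lists (uptake and storage, dehydrogenases, CYP26 enzymes, receptors, coregulators and response genes), of which 11 were listed at 0 in all libraries. Called were 12 of 64 tested in K562+L against K562 (6 higher, 6 lower), 11 of 66 in K562/IM against K562 (9 higher, 2 lower), 23 of 68 for the labelled K562/IM+L libraries against K562/IM (12 higher, 11 lower) and 18 of 67 in the same libraries against K562 (10 higher, 8 lower). These shares of 18.8%, 16.7%, 33.8% and 26.9% stand beside the 6.39%, 19.1%, 28.5% and 23.8% over all genes, and apart from the first they lie near them. The difference in lycorine effect was called for 46 of 69, 66.7% beside 61.7%. Median log2 fold changes of the genes tested were -0.08, 0.29, -0.12 and 0.22 in the 4 pairwise comparisons, beside -0.00012, 0.04, -0.0069 and 0.02 over all genes. The lists were chosen with earlier results of these data known, so that their shares and p-values are descriptions and do not test the lists. All adjusted p-values below are from edgeR's quasi-likelihood test and were adjusted by Benjamini-Hochberg over all genes tested.

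Of the 13 genes for retinol uptake, binding and ester storage, 5 were listed at 0 in all libraries, among them RBP4, the carrier of retinol in blood, and LRAT, which stores retinol as esters. STRA6, the membrane receptor for retinol, had 0, 15 and 5 counts in K562 and 44, 122 and 136 counts in K562/IM, and it rose (log2 fold change 3.62 ± 0.85, SE, adjusted p = 0.00744). RBP5, a cellular retinol-binding protein, measured 4.92, 6.47 and 8.03 CPM in K562, 3.21, 2.65 and 3.02 in K562+L, 3.26, 3.02 and 3.65 in K562/IM and 17.6, 17.9 and 15.3 in the labelled K562/IM+L libraries. RBP5 fell with lycorine in K562 (-1.13 ± 0.20, adjusted p = 0.0048), a call lost without K562 replicate 3 (-0.95), and was higher in the labelled K562/IM+L libraries than in K562/IM (2.38 ± 0.13, adjusted p = 4.2e-06). FABP5, which carries fatty acids and can carry retinoic acid to PPARD, went from 18.6 ± 1.18 CPM in K562/IM to 2.68 ± 0.395 CPM (SD, n = 3) in the labelled K562/IM+L libraries (-2.78 ± 0.14, adjusted p = 3.0e-06). PNPLA4, a retinyl ester hydrolase, was higher there (1.85 ± 0.12, adjusted p = 1.2e-05).

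The retinol and retinal dehydrogenases held the largest rise of the pathway lists in K562/IM against K562. DHRS9, which oxidises retinol, had 23, 25 and 16 counts in K562 and 1847, 2393 and 2380 counts in K562/IM (log2 fold change 6.45 ± 0.16, SE, adjusted p = 3.3e-07). In the labelled K562/IM+L libraries it had 16, 0 and 0 counts (-8.40 ± 0.70 against K562/IM, adjusted p = 3.8e-05). DHRS9 was thus highest in K562/IM, the group where ALDH1A2 was lowest. With lycorine in K562 DHRS9 had 80, 72 and 50 counts (1.496 ± 0.41, adjusted p = 0.0245), a call lost without K562 replicate 2 (1.60) or 3 (1.35) and without K562+L replicate 1 (1.31) or 2 (1.41), and in a fit over all 12 libraries (1.49). RDH10, the main retinol dehydrogenase of the embryo, measured 34.7 ± 2.55, 37.3 ± 2.40, 66.8 ± 4.79 and 20.7 ± 0.952 CPM (SD, n = 3) in K562, K562+L, K562/IM and the labelled K562/IM+L libraries, and its fall in the last against K562/IM was called (-1.67 ± 0.082, adjusted p = 3.1e-06). DHRS3, which returns retinal to retinol and is itself induced by retinoic acid, fell with lycorine in K562 from 14.0 ± 2.77 to 6.04 ± 0.518 CPM (SD, n = 3; -1.22 ± 0.16, adjusted p = 0.00151). DHRS4 was lower in K562/IM than in K562 (-1.29 ± 0.14, adjusted p = 2.0e-04) and higher in the labelled K562/IM+L libraries than in K562/IM (1.98 ± 0.18, adjusted p = 6.4e-05).

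Among 16 other aldehyde dehydrogenases, 3 of 11 tested (27.3%) were called in each pairwise comparison, beside 6.39%, 19.1%, 28.5% and 23.8% of all genes in the order above. ALDH1L1, a folate enzyme of the same superfamily, had 303, 373 and 352 counts in K562, 257, 216 and 237 in K562+L, 0 in each K562/IM library and 91, 118 and 127 in the labelled K562/IM+L libraries. It was at least 133-fold lower in K562/IM than in K562, taking 3 counts per library as the floor (adjusted p = 1.5e-05), and its order over the groups was that of ALDH1A2. Lycorine in K562 lowered ALDH2, the mitochondrial acetaldehyde dehydrogenase, from 66.1 ± 6.25 to 27.0 ± 1.40 CPM (SD, n = 3; log2 fold change -1.29 ± 0.10, SE, adjusted p = 1.9e-04). ALDH2 measured 78.6 ± 1.88 CPM in K562/IM and 121 ± 9.59 CPM in the labelled K562/IM+L libraries. ALDH1L2 (-1.53 ± 0.21, adjusted p = 0.00176) and ALDH6A1 (-1.10 ± 0.14, adjusted p = 0.00126) fell with lycorine in K562 as well. ALDH3B1 went from 0.257 ± 0.0997 CPM in K562 to 0.931 ± 0.175 in K562/IM and 5.03 ± 0.399 in the labelled K562/IM+L libraries (SD, n = 3), and both steps were called (adjusted p = 0.00447 and 3.5e-05).

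**Figure D3:**
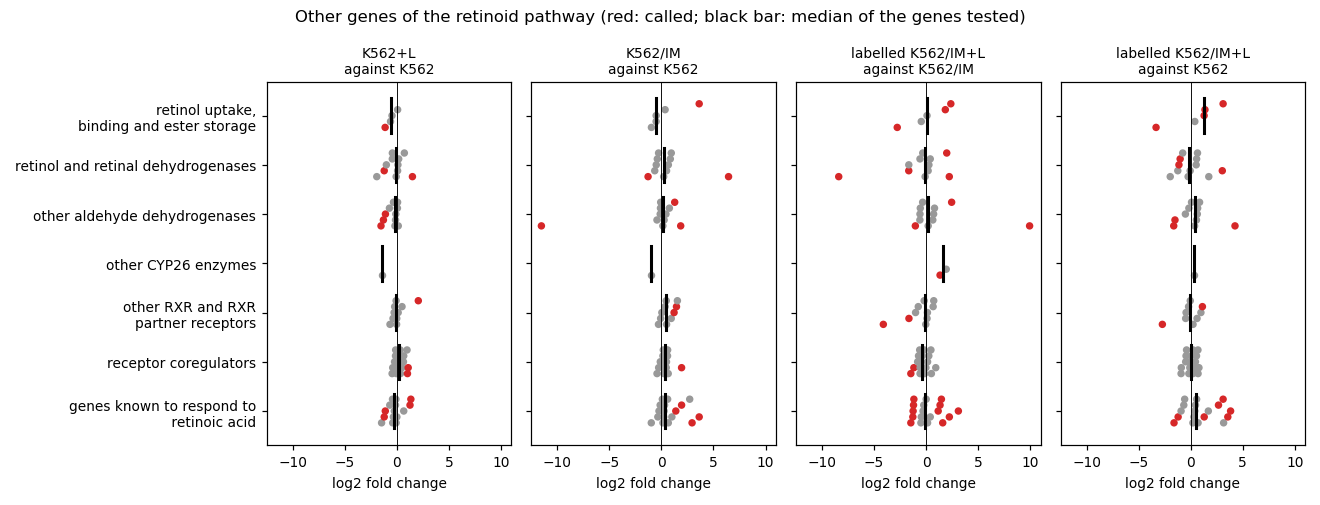
Log2 fold change (x axis) of the tested genes of 7 retinoid lists (rows) in each pairwise comparison, with called genes in red and the median of the list as a black bar. In K562/IM against K562, DHRS9 lies at 6.45 and ALDH1L1 at the far left, and its value there depends on the prior count because it had 0 counts in K562/IM.

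Of 14 other RXR and RXR partner receptors, 10 were tested in K562/IM against K562. VDR, the vitamin D receptor, rose there (log2 fold change 1.44 ± 0.15, SE, adjusted p = 1.6e-04), as did the thyroid hormone receptor THRB (1.21 ± 0.14, adjusted p = 2.4e-04). In the labelled K562/IM+L libraries, VDR was at 0.340, 0.308 and 0.606 CPM against 7.74, 6.65 and 8.03 CPM in K562/IM (-4.11 ± 0.28, adjusted p = 1.5e-05). THRB was lower as well (-1.65 ± 0.14, adjusted p = 3.6e-05), and these were the 2 called of 10 tested there. THRA (0.73 ± 0.061) and NR1H3 (0.68 ± 0.097) passed the adjusted p alone in the other direction. NR1H3, the liver X receptor alpha, was called higher than in K562 (1.12 ± 0.13, adjusted p = 4.0e-04). With lycorine in K562, NR1I3 was the 1 called gene of 10 tested (10.0%, beside 6.39% of all genes), at 35 counts or fewer in all libraries. Its call was lost without K562 replicate 1 (1.70) or 2 (1.96) and with no filter on low counts (2.06). It was also lost without K562+L replicate 1 (2.07), 2 (2.02) or 3 (2.09).

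Of 17 receptor coregulators, all tested, 2 (11.8%) were called with lycorine in K562, both higher, beside 6.39% of all genes. These were EP300 (log2 fold change 1.09 ± 0.18, SE, adjusted p = 0.00376) and CREBBP (1.02 ± 0.17, adjusted p = 0.00332), the histone acetyltransferases that activated receptors recruit. Both lay close to the threshold of 1, with EP300 at 0.98 without K562 replicate 3, and CREBBP at 0.86 without that library, 1.00 without K562+L replicate 1, 0.93 without K562+L replicate 3 and 0.98 by upper-quartile scaling. The corepressor gene NCOR1 stood at 0.48 ± 0.15 in the same comparison and was not called. ZBTB16, which encodes a repressor fused to RARA in a rare leukemia, rose in K562/IM (1.93 ± 0.22, adjusted p = 2.3e-04) and was lower in the labelled K562/IM+L libraries than in K562/IM (-1.18 ± 0.16, adjusted p = 4.7e-04), as was NRIP1 (-1.47 ± 0.20, adjusted p = 4.7e-04).

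The 26 genes known to respond to retinoic acid shared no direction across the 4 pairwise comparisons. In K562/IM against K562 the 4 called were all higher, where 13.9% of all genes were called higher and 5.29% lower. Called were 2 higher and 2 lower of 15 tested in K562+L against K562, 4 higher and 0 lower of 17 in K562/IM against K562, 6 higher and 5 lower of 18 for the labelled K562/IM+L libraries against K562/IM, and 5 higher and 2 lower of 18 in these against K562. These were 26.7%, 23.5%, 61.1% and 38.9% of the genes tested, beside 6.39%, 19.1%, 28.5% and 23.8% of all genes. The list median was -0.24, 0.29, -0.11 and 0.51 on the log2 scale in that order. BTG2, an antiproliferative gene with many other inducers, was 15.6, 13.8 and 15.7 CPM in K562 and 37.9, 36.4 and 40.1 in K562+L. It was 39.9, 37.5 and 39.5 CPM in K562/IM and 211, 169 and 162 in the labelled K562/IM+L libraries, and each of these steps up was called (adjusted p = 1.4e-04 with lycorine in K562, 1.1e-05 in K562/IM against K562 and 3.3e-06 between the last 2 groups). TGM2, tissue transglutaminase and a classic retinoic acid target in myeloid cells, measured 7.83, 8.88 and 10.1 CPM in K562 and 4.63, 4.13 and 3.65 CPM in K562+L. In K562/IM it was 79.1, 76.5 and 50.3 CPM, a rise of 2.94 ± 0.19 on the log2 scale (SE, adjusted p = 1.5e-05), and it stayed at 58.8, 58.6 and 55.7 CPM in the labelled K562/IM+L libraries. NR2F2, an orphan receptor that competes for RXR, rose with lycorine in K562 from 98.9 ± 4.16 to 237 ± 13.8 CPM (SD, n = 3; adjusted p = 1.0e-04) and was lower in the labelled K562/IM+L libraries, at 33.0 ± 0.972, than in K562/IM, at 77.6 ± 5.25 (adjusted p = 9.5e-06). NR2F1, its paralog, was higher there than in K562/IM (1.47 ± 0.11, adjusted p = 2.2e-05). CYP26A1 was higher as well (1.34 ± 0.43, adjusted p = 0.0252), but the call was lost without K562/IM replicate 1 (1.49), 2 (1.23) or 3 (1.30) and without the second (1.36) or the third (1.11) labelled K562/IM+L library, and in a fit over all 12 libraries (1.31). ICAM1 was lower (-1.25 ± 0.085, adjusted p = 1.4e-05).

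**Figure D4:**
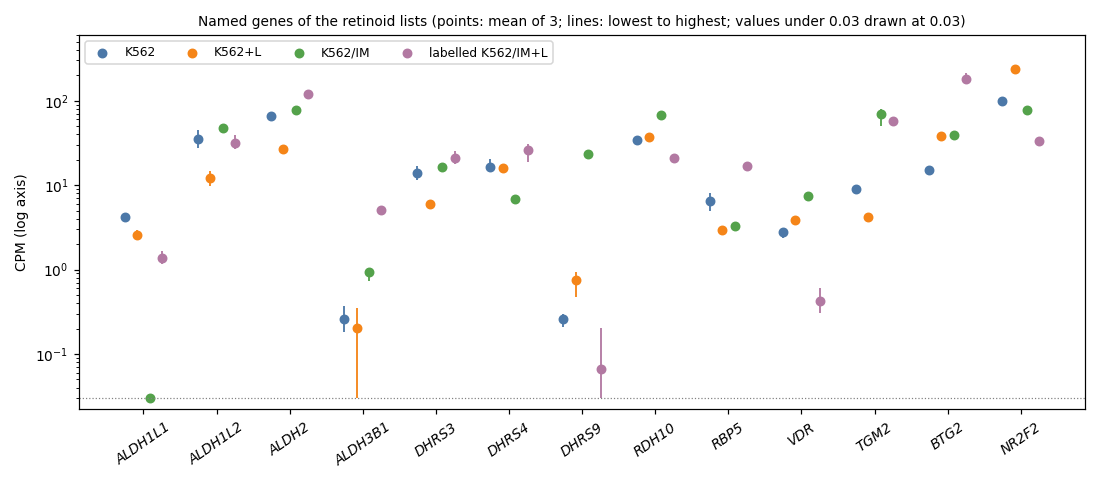
Mean CPM on a log axis (points, n = 3) and the lowest to highest library (lines) of 13 named genes of the retinoid lists in the 4 groups, with values under 0.03 drawn at 0.03. DHRS9 is highest in K562/IM (23.1 CPM), where ALDH1L1 had 0 counts, and NR2F2 is highest in K562+L (237 CPM).

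The 29 symbols whose RefSeq window held the spaced repeat gave no common direction either. Of those tested, 0 of 9 were called in K562+L against K562, 3 of 10 in K562/IM against K562 (2 higher, 1 lower), 5 of 10 for the labelled K562/IM+L libraries against K562/IM (3 higher, 2 lower) and 2 of 11 in these against K562 (2 higher). Over all genes these comparisons had 6.39%, 19.1%, 28.5% and 23.8% called, and at such numbers of genes no difference from these shares is read. The difference in lycorine effect was called for 9 of 12 (4 higher, 5 lower), beside 61.7%.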

How the data were processed

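The deposited table holds unnormalized counts of reads per gene symbol, as whole numbers, for 12 libraries. The submitters' processing notes name FastQC, STAR, StringTie, DESeq2 and hg38. Which of them made the counts, with which annotation and strand setting, is not given in the sources used here. Of 23289 values from 1 to 25, 67.9% exceeded a multiple of 4 by 0 or 1, where 52% of whole numbers do, so that counting noise may exceed what the totals give.

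Libraries were grouped by the labels' treatment field, and doses come from the study's methods. Members and gene lists were chosen with earlier results of these data known. In each pairwise comparison the 6 libraries were filtered with filterByExpr (minimum count 10), scaled by TMM and fitted with edgeR 4.0.16 (glmQLFit, glmQLFTest, R 4.3.3) with Benjamini-Hochberg adjustment. The difference in lycorine effect was an interaction over 12 libraries. The smallest exact two-sided p of 3 against 3 libraries is 0.1. CPM used TMM over all libraries. Positions and lengths came from GENCODE 29 (GRCh38), which matched 19015 symbols. Genes named are all members, genes among the up to 4 called per list, comparison and direction with the largest change, and the 3 genes most like each of the 3 widest-ranging members; NCOR1 and genes at or near 0 were added after their values were seen. DESeq2 1.42.0, upper-quartile scaling, no filter, counts divided by 4, a fit of all libraries, a replicate block and leaving out each library were alternatives. The steps were tested on simulated counts. A few genes that these criteria select were left unnamed, though list counts contain them. The length of all exons (levels, shares and ratios) was added after seeing the data.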

Additional observations from a re-analysis of the deposited data

Results flagged for a closer look

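The lycorine effect in K562/IM, as labelled, differed from that in K562 by the interaction test of edgeR over all 12 libraries for 6 of 8 tested genes of the set and 46 of 69 tested genes of the pathway lists, beside 61.7% of all genes. Given here are the 6 and the 3 pathway genes that were called in opposite directions in the lycorine comparisons of the lines. On the log2 scale the differences were 5.696 for ALDH1A2, 1.334 for RXRA, 1.005 for RARG, 0.819 for ALDH1A1, 0.600 for RXRB and -1.211 for RARA, and the call of RXRB was lost without any 1 of 5 libraries (0.441 to 0.585). The genes of the set were picked with these libraries in view, so that their differences are descriptions. RBP5 differed by 3.484, since it was lower with lycorine in K562 and higher in the labelled K562/IM+L libraries than in K562/IM. DHRS9 (-9.911) and NR2F2 (-2.497) ran the other way, higher with lycorine in K562 and lower in the labelled K562/IM+L libraries than in K562/IM. In K562+L against K562, the call of RBP5 was lost without K562 replicate 3 (-0.945). That of DHRS9 was lost without K562 replicate 2 or 3 and without K562+L replicate 1 or 2. It was also lost in a fit over all 12 libraries and with a replicate block. All of the differences rest on the labelled K562/IM+L libraries, whose part was not tested. Groups of 3 libraries were not examined for outlying libraries.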

How the results depend on the processing

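Counts of calls stayed within 1.5 times their value under each alternative run. Over all genes in the 4 pairwise comparisons and the difference in lycorine effect, they were 826, 2566, 3917, 3162 and 8628, and 911, 2592, 3943, 3256 and 8994 with DESeq2. Replicate numbers showed no pairing of the libraries. Deviations from the group mean correlated between -0.569 and 0.408 for same-numbered libraries of different groups. For differently numbered libraries the range was -0.443 to 0.565. K562 replicate 1 deviated along with K562+L replicate 3 (0.458) and with the third labelled K562/IM+L library (0.565). The latter pair also deviated together (0.408). What these libraries shared was not tested. With a replicate block the counts over all genes were 735, 2433, 3807, 2913 and 8319, and those of pathway genes 10, 11, 20, 18 and 45 in place of 12, 11, 23, 18 and 46. The block ended the calls of DHRS9 (1.469) and NR1I3 (2.163) in K562+L against K562, and of CYP26A1 (1.315) and RARRES2 (3.351) in the labelled K562/IM+L libraries against K562/IM. Leaving out 1 library at a time gave 8 to 12, 11 to 13, 21 to 23, 17 to 20 and 43 to 49 pathway genes. Upper-quartile scaling moved the median log2 difference in lycorine effect of all genes from -0.02 to 0.11.

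Of 469 fold changes of the set under alternatives, 455 kept direction and side of the threshold, 5 reversed, 7 lost and 2 gained a call. The reversals were all of values near 0 or of low counts, when 1 library was left out. RARA in K562/IM against K562 ranged from -0.038 (without K562 replicate 1) to 0.169, and CRABP2 from -0.016 (without K562 replicate 2) to 0.941. The difference in lycorine effect ranged from -0.893 to 0.075 for CRABP2 (above 0 without K562 replicate 2, and 0.072 without K562+L replicate 2) and from -1.827 to 0.082 for RARB (above 0 without K562+L replicate 2). That of RXRB was not called without K562 replicate 3 (0.441), K562+L replicate 3 (0.553), K562/IM replicate 2 (0.585) or the first (0.548) or second (0.564) labelled K562/IM+L library. The cause was not tested. Of 739 fold changes of named pathway genes, 692 kept direction and side, and 47 lost the call. Depth limits RARB, ALDH1A3, CRABP2, CYP26A1 and STRA6, at under 150 counts per library.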
